A study of Mus musculus with 3 samples.

Results

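Genes of cholesterol synthesis and of its control by SREBP2 were followed in Hepa1c1c7 cells, a mouse hepatoma line, on 3 Agilent one-colour expression arrays. Cells carried a Cd74 vector (the MHC class II chaperone, which also serves as a surface receptor of MIF), a Tmem54 vector (a transmembrane protein) or the empty vector, and each vector was measured on 1 array of the same slide. The labels give all 3 groups the same cell line, total RNA and culture conditions, and name no time after transfection, clone number or further agent. The list holds 27 genes, of 24842 on the array, named as sterol pathway enzymes or as genes of SREBP control, sterol transport and uptake. With 1 array per vector no value has a replicate, no difference was tested and no p-value is given.

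Of the 27 genes, 26 had a probe of their own name and 25 were measured. The brightest probe of each of these 25 genes was well above background on all 3 arrays, so none of their differences is a bound. Mylip, a ubiquitin ligase that degrades lipoprotein receptors, was not well above background on any array, with a processed signal of 3.0 for Cd74, 3.2 for Tmem54 and 2.9 for the empty vector. Acat2, the cytosolic thiolase that joins acetyl-CoA units, had no probe under its name and has no value here. On all arrays together 15796 genes were well above background at least once.

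Cholesterol is built from acetyl-CoA through HMG-CoA and mevalonate to the prenyl diphosphates, then through squalene to lanosterol, which a series of endoplasmic reticulum enzymes trims into cholesterol. When membrane sterol is low, the escort protein SCAP carries SREBP2 to the Golgi, proteases release its transcription factor domain, and genes along the whole route are switched on together. When sterol is plentiful, INSIG proteins hold SCAP in the endoplasmic reticulum. The liver is a main site of this synthesis, and several target genes also serve sterol uptake and transport.

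A processed signal is a linear spot intensity after background subtraction and detrending. Differences are of log2 signals after each array was divided by its 75th percentile. The error given with a difference is the scanner software's model error, which stands for noise within the arrays only. That error was 0.20 for bright probes, where it comes from a multiplicative error preset at 0.1 and not from measured spread. Replicate spots of one probe on the same array had a median SD between 0.036 and 0.038 on the log2 scale. Between 33049 and 33896 spots per array were well above background. The vectors were visible in their own genes, with a Cd74 signal of 10855 on the Cd74 array, 22.44 on the Tmem54 array and 26.77 on the empty-vector array. Tmem54 had 2.833 with Cd74, 19747 with Tmem54 and 2.781 with the empty vector, well above background on its own array alone.

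Most sterol genes had their lowest signal on the Cd74 array. The list was chosen with earlier results of these data known, so the shares below describe it and are no test of it. Of the 25 measured genes, 24 were below the empty vector on the Cd74 array, against 47.6% of all 15630 genes compared. At least 1.5-fold lower (a log2 difference of at least 0.585 in size) were 12 of 25, against 4.14% of all genes, and 0 were at least 1.5-fold higher, against 3.38%. None reached 2-fold lower (0 of 25, against 1.4% of all genes). The median difference was -0.54, against 0.012 for all genes. Among bright genes, to which 23 members belong, 11 of 23 were at least 1.5-fold lower, against 1.74% of 10080.

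The Tmem54 array gave small differences, mostly on the other side. Above the empty vector were 20 of 25 members, against 49% of all 15521 genes compared, with a median of 0.11 against -0.003 for all genes. None was at least 1.5-fold higher (background 1.32%) or at least 1.5-fold lower (background 2.49%). The members ranged from -0.22 to 0.23, sizes close to the model error of 1 difference. The same empty-vector array is the reference of both comparisons, so the members' shares on the 2 sides are not independent of each other. In 19 of the 25 genes the signals ran lowest with Cd74 and highest with Tmem54, with the empty vector between them. The share of all genes in this order was not computed, so this count has no background to be judged against. Of the 16 mitotic genes listed further on, 16 were below the empty vector with Cd74 and 13 above it with Tmem54.

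**Figure D1:**
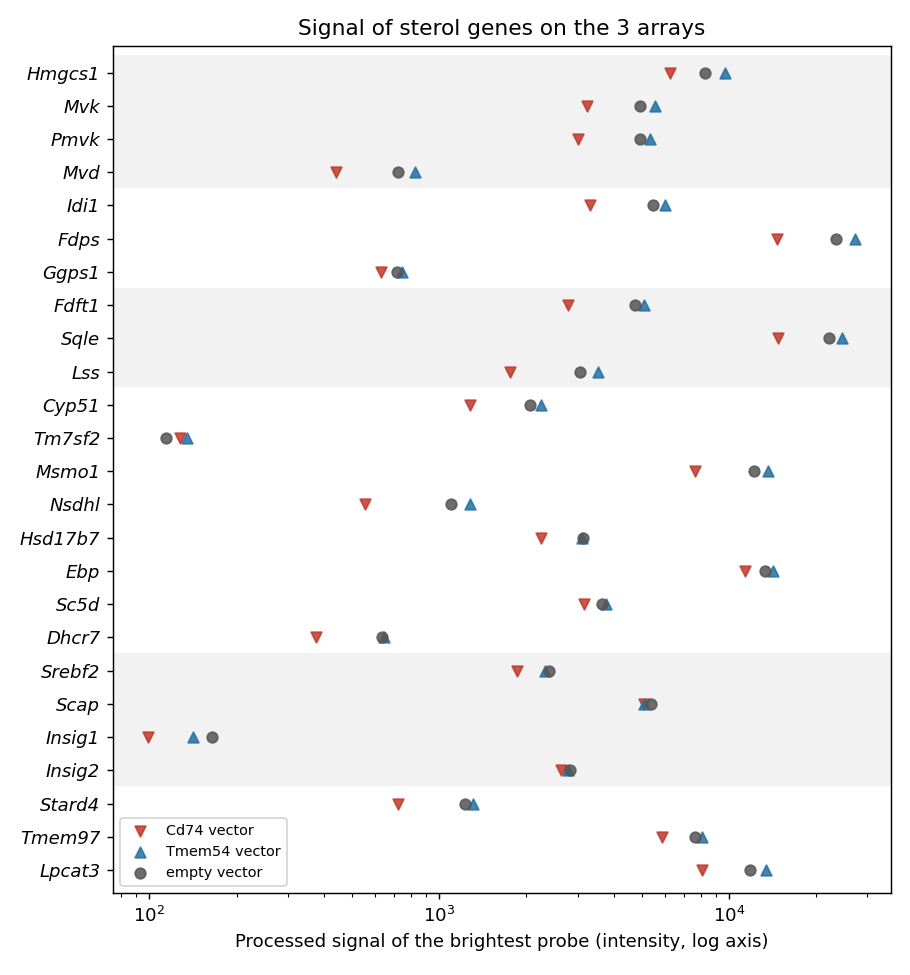
Processed signal (intensity, log axis) of the brightest probe of each sterol gene on the Cd74 array (red), the Tmem54 array (blue) and the empty-vector array (grey), 1 array each, with genes in pathway order and shading by role. The red points lie left of the others in most rows, while Tm7sf2, Scap and Insig2 show nearly coinciding points. Signals of different genes come from different probes and are not comparable with each other.

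The early mevalonate enzymes were lower on the Cd74 array in all 4 genes measured, with a median of -0.59. Hmgcs1, the HMG-CoA synthase of the cytosol (probe on chromosome 13_random, 114793 to 114852, build mm9), had a signal of 6260 with Cd74, 9689 with Tmem54 and 8256 with the empty vector. Its difference was -0.33 ± 0.20 for Cd74 against the empty vector, the smallest of the 4 genes in size. Mevalonate kinase Mvk (chromosome 5, 114910540 to 114910599) had 3240 with Cd74, 5531 with Tmem54 and 4915 with the empty vector. Phosphomevalonate kinase Pmvk (chromosome 3, 89272867 to 89272926) had 3015 with Cd74, 5354 with Tmem54 and 4933 with the empty vector. Both kinases thus read lowest with Cd74, by -0.54 ± 0.20 and -0.645 ± 0.20. The decarboxylase Mvd, which makes isopentenyl diphosphate (chromosome 8, 124957750 to 124957809), had 439.8 with Cd74, 823.5 with Tmem54 and 718.8 with the empty vector, a difference of -0.64 ± 0.20. All 4 genes stood slightly above the empty vector on the Tmem54 array, between 0.11 and 0.22.

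Of the prenyl diphosphate genes, the 2 that lead on to sterols were lower on the Cd74 array and the branch enzyme was close to the empty vector. Idi1, the isopentenyl diphosphate isomerase (chromosome 13, 8891524 to 8891583), had 3301 with Cd74, 6034 with Tmem54 and 5479 with the empty vector, a difference of -0.67 ± 0.20. Fdps, which makes farnesyl diphosphate (chromosome 3, 88897549 to 88897608), had 14689 with Cd74, 27231 with Tmem54 and 23424 with the empty vector, a difference of -0.61 ± 0.20. Ggps1, which makes geranylgeranyl diphosphate for protein prenylation (chromosome 13, 14144710 to 14144769), had 631.8 with Cd74, 744.7 with Tmem54 and 713.0 with the empty vector. Its difference of -0.11 ± 0.20 was smaller than the model error, and 29.5% of all genes had a difference as low or lower.

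The squalene and lanosterol steps were lower in all 3 genes, with a median of -0.70. Fdft1, the squalene synthase and the enzyme that commits farnesyl diphosphate to sterols (chromosome 14, 63765457 to 63765516), had 2790 with Cd74, 5100 with Tmem54 and 4735 with the empty vector. Sqle, the squalene epoxidase (chromosome 15, 59162688 to 59162747), had 14695 with Cd74, 24449 with Tmem54 and 22123 with the empty vector. Lss, the lanosterol synthase (chromosome 10, 76016592 to 76016651), had 1748 with Cd74, 3543 with Tmem54 and 3055 with the empty vector. In each gene the Cd74 array was lowest and the Tmem54 array highest. Against the empty vector the Cd74 differences were -0.70 for Fdft1, -0.525 for Sqle and -0.74 for Lss, each ± 0.20. Lss had the second lowest difference of the 25 genes.

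The enzymes between lanosterol and cholesterol ranged from -0.91 to 0.23, the widest range of the roles. Nsdhl, a sterol dehydrogenase that removes a carboxyl group (chromosome X, 70203236 to 70203295), had 556.1 with Cd74, 1278 with Tmem54 and 1094 with the empty vector. Its difference of -0.91 ± 0.20, 1.88-fold lower with Cd74, was the lowest of the list, and 1.66% of all genes had one as low or lower. The call rests on that probe: a second, dim Nsdhl probe with 31.3 with Cd74, 33.7 with Tmem54 and 35.1 with the empty vector differed by -0.10 ± 0.28, and the mean over both probes was -0.51. Msmo1, the methylsterol oxidase that works just before it (chromosome 8, 67196982 to 67197041), had 7611 with Cd74, 13621 with Tmem54 and 12148 with the empty vector. Cyp51, the lanosterol demethylase (chromosome 5, 4082122 to 4082181), had 1273 with Cd74, 2243 with Tmem54 and 2059 with the empty vector, and Dhcr7, which reduces the last precursor to cholesterol (chromosome 7, 151033874 to 151033933), had 375.4 with Cd74, 646.9 with Tmem54 and 636.4 with the empty vector. These 3 genes were 1.53-fold, 1.54-fold and 1.62-fold lower with Cd74 than with the empty vector.

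Other enzymes of the same stretch differed less. Hsd17b7, a ketosteroid reductase, had 2248 with Cd74, 3120 with Tmem54 and 3136 with the empty vector, a difference of -0.415 ± 0.20. Ebp, the sterol isomerase, had 11381 with Cd74, 14183 with Tmem54 and 13345 with the empty vector and differed by -0.16, and the desaturase Sc5d had 3157 with Cd74, 3759 with Tmem54 and 3630 with the empty vector and differed by -0.14. Both of these are within the model error of 0.20. Tm7sf2, a sterol reductase that shares its activity with the lamin B receptor, was dim, with 127.7 with Cd74, 134.8 with Tmem54 and 114.2 with the empty vector. At 0.23 ± 0.21 on both arrays it was the only member above the empty vector with Cd74 in the setting used here.

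**Figure D2:**
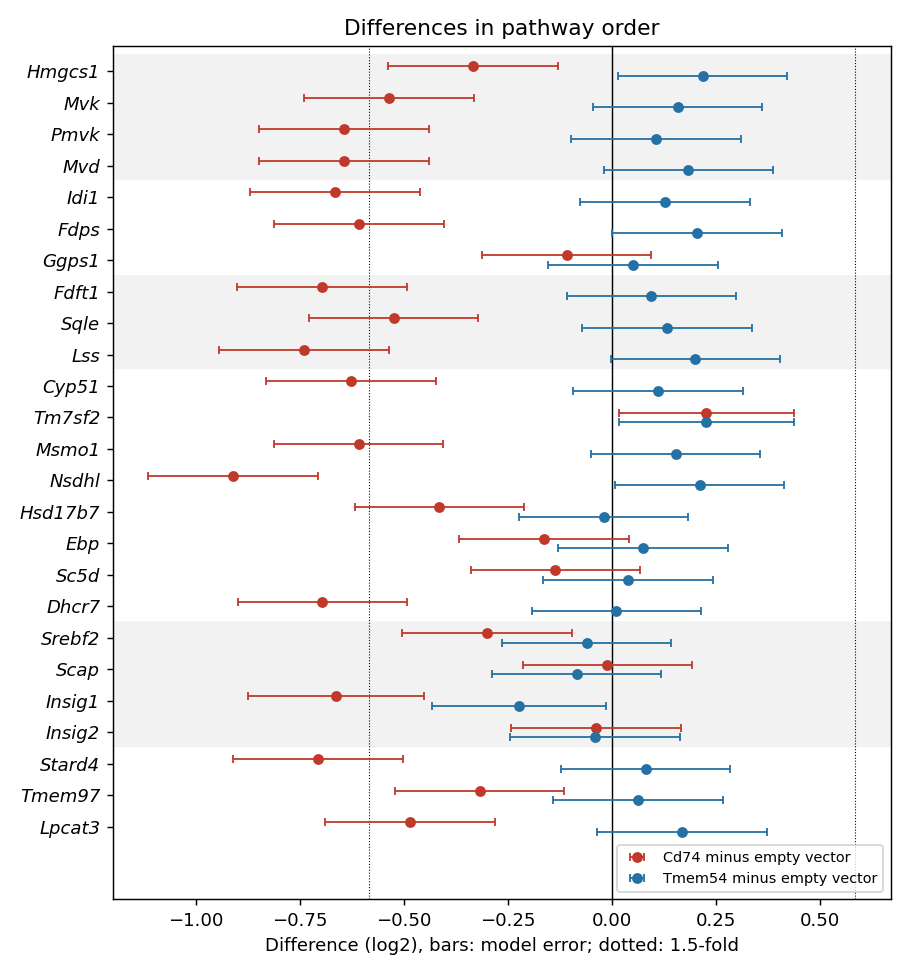
Log2 difference of each sterol gene from the empty vector on the Cd74 array (red) and on the Tmem54 array (blue), with bars for the model error of the processed signal and dotted lines at 1.5-fold. Genes run in pathway order, shaded by role. Red points lie left of 0 except for Tm7sf2, from -0.91 for Nsdhl to -0.011 for Scap, and blue points stay between -0.22 and 0.23.

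Among the genes of SREBP2 control, Insig1 was lower with Cd74, and Scap and Insig2 were close to the empty vector. Srebf2 was lower by a size that depended on the probe. Insig1, an SREBP target that retains SCAP (chromosome 5, 28404246 to 28404305), had 99.1 with Cd74, 141.9 with Tmem54 and 164.3 with the empty vector. It differed by -0.66 ± 0.21 for Cd74 and by -0.22 ± 0.21 for Tmem54, the lowest Tmem54 value of the list. With normexp background correction its Cd74 difference was -0.41, no longer past 1.5-fold. Insig2, its paralog that is not driven by SREBP2 in the same way (chromosome 1, 123201085 to 123201144), had 2632 with Cd74, 2776 with Tmem54 and 2830 with the empty vector. Scap (chromosome 9, 110287280 to 110287339) had 5086 with Cd74, 5100 with Tmem54 and 5363 with the empty vector. The Cd74 differences of Insig2 and Scap were -0.039 and -0.011, far inside the model error of 0.20. Srebf2, the gene of SREBP2 itself (chromosome 15, 82035495 to 82035554), had 1860 with Cd74, 2317 with Tmem54 and 2397 with the empty vector, a difference of -0.30 ± 0.20 by its brightest probe.

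The 3 measured genes of sterol transport and membrane lipid were lower with Cd74. Stard4, a carrier of cholesterol between membranes, had 719.8 with Cd74, 1312 with Tmem54 and 1230 with the empty vector, a difference of -0.71 ± 0.20. Tmem97, an endoplasmic reticulum protein also known as the sigma-2 receptor, had 5869 with Cd74, 8068 with Tmem54 and 7656 with the empty vector and differed by -0.32 ± 0.20. Lpcat3, a phospholipid acyltransferase that is a known target of the sterol sensor LXR, had 8085 with Cd74, 13444 with Tmem54 and 11852 with the empty vector and differed by -0.49 ± 0.20. Stard4 was the only one of them past 1.5-fold, and its second probe, with 133.1 with Cd74, 221.4 with Tmem54 and 184.0 with the empty vector, differed by -0.40, short of that size, as did the mean over both (-0.55).

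Set directly against each other, the Cd74 and Tmem54 arrays were further apart than the Cd74 and empty-vector arrays. With Cd74 22 of 25 members were below Tmem54, against 45.6% of all 15423 genes compared, and the median was -0.66 against 0.026 for all genes. At least 1.5-fold lower were 14 of 25, against 4.79% of all genes, and 0 were at least 1.5-fold higher, against 5.07%. Nsdhl, at -1.12 ± 0.20, was the one member past 2-fold lower (1 of 25, against 1.69% of all genes), followed by Lss at -0.94 and Mvd at -0.83. By the dim second probe Nsdhl differed by -0.030 in this comparison. Scap (0.074), Insig2 (0.001) and Tm7sf2 (0.000) were not below Tmem54, and normexp background correction or centring on the median of detected probes put 24 members below it. Of all 15423 genes, 6891 were below Tmem54 with normexp and 7584 with median centring.

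**Figure D3:**
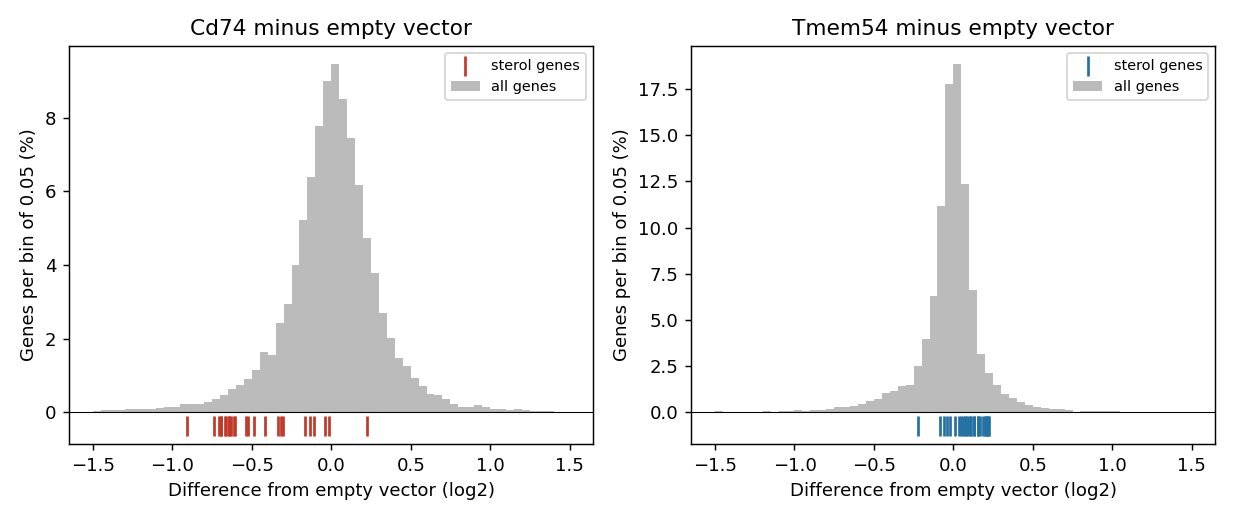
Share of all genes (%, grey bars, bins of 0.05) by log2 difference from the empty vector on the Cd74 array (left) and on the Tmem54 array (right), with the 25 sterol genes as coloured ticks under the axis. The red ticks gather on the lower flank, with a median of -0.54, and the blue ticks lie between -0.22 and 0.23.

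Probes elsewhere in the same genes were mostly lower with Cd74 as well, but by less. A further probe was well above background on at least 1 array for 19 members, 27 probes in all. Of these, 20 were below the empty vector with Cd74, with a median of -0.21 and 6 at least 1.5-fold lower. These are plain differences, no share over all further probes is given here, and probes of the same gene are not independent of each other. By the next-brightest probe alone, 17 of 19 members were below the empty vector, against 3492 of 6902 genes. At least 1.5-fold lower by that probe were 4 of 19, against 240 of 6902. The Hmgcs1 probe among the 6 was not well above background with Cd74 (a signal of 8.3), and its bound was -0.153, short of that size. Of the 19 probes with a signal of at least 100 on every array, 15 were below the empty vector with Cd74, with a median of -0.40 and 4 at least 1.5-fold lower. Those 4 were the further probes of Mvk (-0.79), Fdft1 (-0.77), Srebf2 (-0.69) and Msmo1 (-0.645). For 6 genes past 1.5-fold by the brightest probe, the next-brightest probe was not: Pmvk (-0.57), Cyp51 (-0.57), Lss (-0.47), Stard4 (-0.40), Nsdhl (-0.10) and Dhcr7 (0.20), where the Nsdhl and Dhcr7 probes were dim. Tm7sf2 was below the empty vector by its other, dim probe (-0.16). For Srebf2 the other probe had 836.2 with Cd74, 1476 with Tmem54 and 1410 with the empty vector. It lies on chromosome 15 from 82034765 to 82034824 and differed by -0.69 ± 0.20, against -0.30 for the brightest probe, so the size for Srebf2 depends on the probe. Ggps1 was read by 5 further probes, of which 4 were above the empty vector with Cd74, by 0.10 to 0.30, and 1 was below it, by -0.20. Its direction therefore depends on the probe as well. The 3 Insig2 probes stayed between -0.039 and 0.010.

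**Figure D4:**
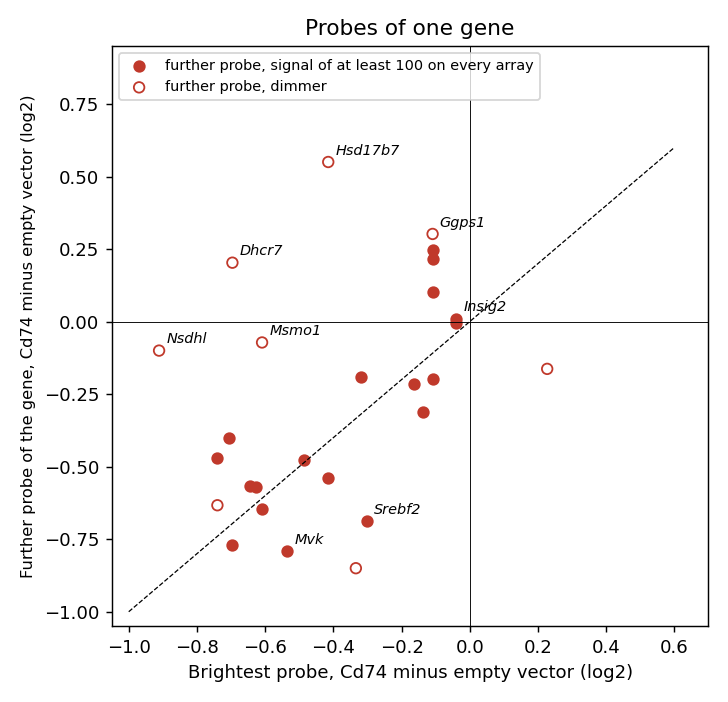
Log2 difference between the Cd74 and the empty-vector array by the brightest probe of a gene (x axis) and by each further probe of that gene (y axis), filled where the further probe had a signal of at least 100 on every array. The dashed line marks equal values. Filled points for Mvk and Srebf2 lie below the line, those for Ggps1 straddle 0, and the open points for Hsd17b7 and Dhcr7 lie above 0.

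Promoter sequence was read for the genes in RefSeq windows of 250 bases before to 50 bases after the start site (build GRCm38.p6), which matched 23 of the 27 genes. Fdps, Fdft1, Sqle and Stard4 had no window and were not searched. SREBP2 binds the sterol regulatory element and does so with the help of NF-Y and Sp1, whose letters are CCAAT and GGGCGG. The motif TCACNCCAC, searched on both strands, occurred in 1 member window, Hmgcs1, against 1.38% of 12462 detected genes. CCAAT on either strand occurred in 21 of 23 members, all but Acat2 and Scap, against 42.8% of detected genes. GGGCGG occurred in 21 of 23, all but Pmvk and Ggps1, against 59.7%. A match of letters is no binding site, and its absence says only that these letters are not in the window. The stretches from 150 bases to 1 base before the start site are shown for 6 genes that were lower with Cd74, followed by Tm7sf2, which was above the empty vector, and Scap, which was close to it (-0.011). Capitals mark TCACNCCAC and CCAAT, and the second of these is written ATTGG where it lies on the other strand. The stretches lie at chr13:119690201-119690350 (plus strand) for Hmgcs1, chr8:122443423-122443572 (minus) for Mvd, chr13:8885456-8885605 (plus) for Idi1, chr10:76531455-76531604 (plus) for Lss, chr8:64733579-64733728 (minus) for Msmo1, chrX:72918371-72918520 (plus) for Nsdhl, chr19:6067851-6068000 (minus) for Tm7sf2 and chr9:110333138-110333287 (plus) for Scap.
Hmgcs1: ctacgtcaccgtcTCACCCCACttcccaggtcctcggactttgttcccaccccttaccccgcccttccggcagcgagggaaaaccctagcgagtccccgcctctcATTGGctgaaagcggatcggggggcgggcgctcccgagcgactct
Mvd: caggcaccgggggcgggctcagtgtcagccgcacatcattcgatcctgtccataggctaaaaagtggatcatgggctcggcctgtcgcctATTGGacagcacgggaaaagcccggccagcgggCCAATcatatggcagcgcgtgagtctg
Idi1: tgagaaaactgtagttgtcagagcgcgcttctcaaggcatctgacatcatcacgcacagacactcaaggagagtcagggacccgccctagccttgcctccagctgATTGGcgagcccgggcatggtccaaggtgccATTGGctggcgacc
Lss: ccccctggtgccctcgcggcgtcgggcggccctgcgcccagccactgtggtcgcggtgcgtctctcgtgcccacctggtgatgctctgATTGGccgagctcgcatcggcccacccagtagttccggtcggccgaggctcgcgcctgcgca
Msmo1: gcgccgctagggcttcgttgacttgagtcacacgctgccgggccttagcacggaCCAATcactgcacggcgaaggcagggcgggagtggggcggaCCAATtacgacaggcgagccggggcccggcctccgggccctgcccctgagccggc
Nsdhl: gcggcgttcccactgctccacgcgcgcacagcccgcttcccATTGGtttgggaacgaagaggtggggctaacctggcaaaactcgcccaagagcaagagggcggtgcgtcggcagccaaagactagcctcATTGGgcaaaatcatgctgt
Tm7sf2: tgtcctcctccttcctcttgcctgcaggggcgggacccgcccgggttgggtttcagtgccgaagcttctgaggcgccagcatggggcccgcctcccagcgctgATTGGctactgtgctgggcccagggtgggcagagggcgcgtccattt
Scap: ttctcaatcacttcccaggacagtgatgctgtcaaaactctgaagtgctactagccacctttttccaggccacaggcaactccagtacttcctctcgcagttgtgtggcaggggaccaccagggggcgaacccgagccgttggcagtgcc

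In these stretches Mvd, Idi1, Msmo1 and Nsdhl hold 2 CCAAT boxes each, and Hmgcs1, Lss and Tm7sf2 hold 1 each. Scap holds 0 of them. Hmgcs1, which holds the exact sterol regulatory element, had a Cd74 difference of -0.33. The genes shown were picked without a fixed rule, and whether these letters go with the size of a difference was not tested. Tm7sf2 holds a CCAAT box and was not lower with Cd74.

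Genes around the pathway were read from further lists, which were put together by role and with earlier results of these data known. The fatty acid synthesis list, driven mainly by the related factor SREBP1, had a median of -0.175 over 16 of 17 genes measured, with 3 at least 1.5-fold lower. Scd2, a stearoyl-CoA desaturase, had 19319 with Cd74, 43741 with Tmem54 and 37654 with the empty vector, a difference of -0.90 ± 0.20. Acss2, the cytosolic acetyl-CoA synthetase, had 118.1 with Cd74, 245.6 with Tmem54 and 203 with the empty vector and differed by -0.72 ± 0.21. Both read lowest with Cd74 and highest with Tmem54. The third gene past 1.5-fold was the acyltransferase gene Gpam, named after its values were seen, with 17.09 with Cd74, 10.15 with Tmem54 and 171.3 with the empty vector. Its difference was -3.26 ± 0.34 for Cd74, and with Tmem54 it was not well above background. Fads2 and Scd1, both desaturases, differed by -0.30 each. Fasn, the fatty acid synthase, and Srebf1, the gene of SREBP1, differed by 0.013 and 0.026 and were also named after their values were seen. The sterol enzymes had a median of -0.61 over 18 genes, with 10 at least 1.5-fold lower. Of all genes, 4.14% were at least 1.5-fold lower with Cd74. With the mean over all detected probes 2 of 16 fatty acid genes and 8 of 18 sterol enzymes were that much lower. With the next-brightest probe these were 0 of 10 and 3 of 14.

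The electron donors and scaffold of sterol synthesis had a median of -0.20 over 5 genes, with 0 past 1.5-fold. Over all genes 4.14% were at least 1.5-fold lower and 3.38% at least 1.5-fold higher with Cd74, so 0 or 1 gene in a short list says little. Cyb5r3, the cytochrome b5 reductase that feeds the methylsterol oxidase, had 21693 with Cd74, 34900 with Tmem54 and 30837 with the empty vector, a difference of -0.44 ± 0.20. Por, the reductase that serves Cyp51 and Sqle, differed by -0.29, the scaffold Erg28 by -0.20 and Cyb5b by -0.18. Cyb5a, named after its values were seen, went the other way, by 0.18. The cholesterol handling list had a median of 0.046 over 13 of 15 genes measured. Abca1, a cholesterol exporter induced by LXR, had 745.8 with Cd74, 1320 with Tmem54 and 1209 with the empty vector and differed by -0.63 ± 0.20, the 1 gene of the list past 1.5-fold, and the endocytic receptor gene Lrp1 differed by -0.51. With the mean over all detected probes 0 of the 13 genes were at least 1.5-fold lower (lowest -0.58), and with the next-brightest probe 1 of 9 was. Stard3 and Npc1, which handle cholesterol at late endosomes, differed by 0.38 and 0.285.

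The proteins that process SREBP or degrade sterol enzymes had a median of -0.010 over 12 genes, with 0 past 1.5-fold in either direction. The background was 4.14% of all genes lower and 3.38% higher by that size, so a count of 0 does not set such a list apart. The protease genes Mbtps1 and Mbtps2 differed by -0.26 and -0.15, Pgrmc1 by 0.22 and the ubiquitin ligase gene Fbxw7 by 0.12. The isoprenoid branches had a median of 0.066 over 15 genes, again with 0 past 1.5-fold. Trit1, a tRNA isopentenyltransferase, differed by 0.42, the CAAX protease gene Rce1 by 0.31, the polyprenyl synthase gene Pdss1 by -0.16 and Rabggta by 0.15. Of the ketogenesis list, Acat1, the mitochondrial counterpart of Acat2, differed by -0.44, Oxct1 by -0.42 and Acaa2 by -0.22. Bdh1, named after its values were seen, was the 1 gene of that list past 1.5-fold, higher with Cd74, and was well above background on that array alone, at dim signals of 19.66 with Cd74, 9.969 with Tmem54 and 11.71 with the empty vector.

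**Figure D5:**
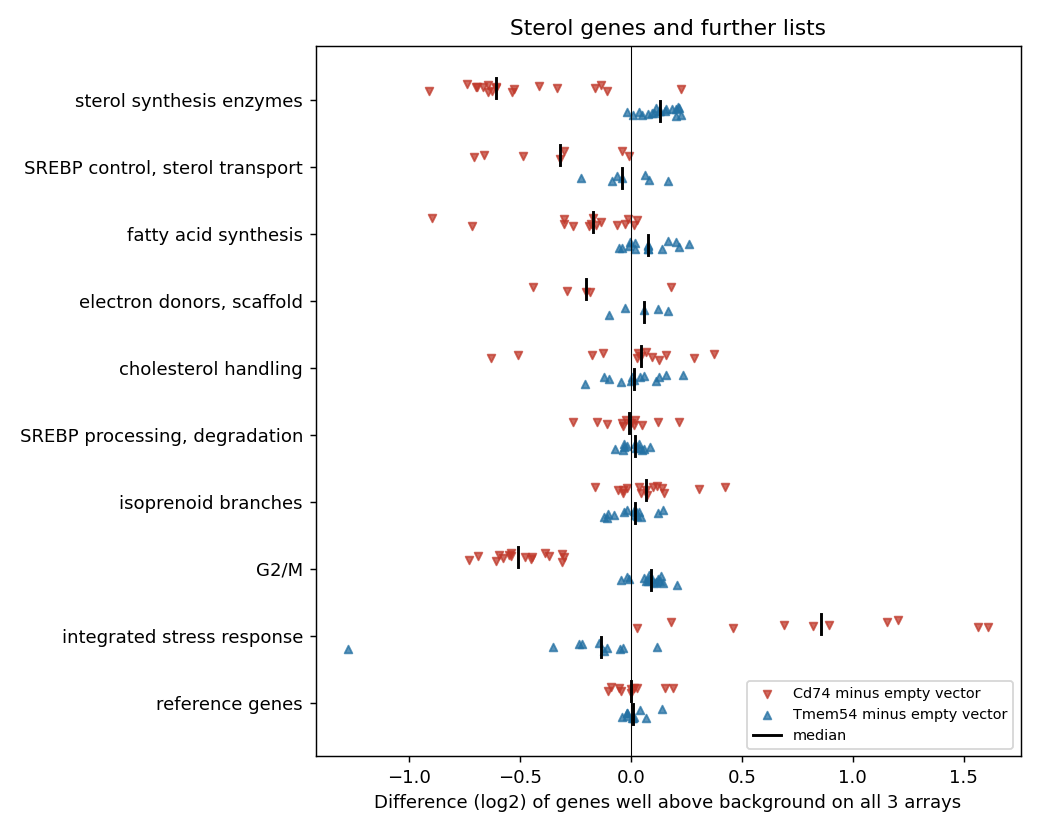
Log2 differences from the empty vector on the Cd74 array (red) and the Tmem54 array (blue) for sterol synthesis enzymes, for genes of SREBP control and sterol transport, and for further lists, limited to genes well above background on all 3 arrays; black bars are medians. The red points of the sterol enzymes and of the G2/M genes lie mostly left of 0, with medians of -0.61 and -0.51, those of reference genes lie around 0, and those of the integrated stress response lie to the right, with a median of 0.86.

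Other gene groups, also chosen with earlier results of these data known, differed on the same arrays, and their part in the sterol result was not tested. The G2/M list of mitotic genes had a median of -0.51 with Cd74 over 16 genes, all 16 below the empty vector and 4 at least 1.5-fold lower, with Cenpa at -0.73, Kif11 at -0.69, Nusap1 at -0.61 and Cdc20 at -0.59. Of all genes, 4.14% were at least 1.5-fold lower and 3.38% at least 1.5-fold higher with Cd74. With Tmem54 the median of the G2/M list was 0.090. Its summed scaled signal was 215 with Cd74, 316 with Tmem54 and 294 with the empty vector. The integrated stress response list had a median of 0.86 with Cd74, with 7 of 10 at least 1.5-fold higher, and -0.13 with Tmem54, and its summed scaled signal was 288 with Cd74, 181 with Tmem54 and 179 with the empty vector. Vldlr stands in this list and in the cholesterol handling list. Trib3, which the study reports as higher with Cd74, differed by 1.61, Slc7a11 by 1.565, Ppp1r15a by 1.205 and Chac1 by 1.16. Reference genes had a median of 0.001 with Cd74, led in size by Polr2a at 0.19, Tbp at 0.155, Gapdh at -0.10 and Sdha at -0.091. A lower signal from fewer cells in a given state and one from less RNA per cell cannot be told apart in these bulk samples.

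Of 8 hepatocyte markers 5 were detected, with a summed scaled signal of 229 with Cd74, 222 with Tmem54 and 208 with the empty vector. Rbp4 alone gave 131 of this with Cd74, 95.3 with Tmem54 and 93.0 with the empty vector. That Cd74 had the highest sum rests on this gene. Afp was bright, with 24693 with Cd74, 26705 with Tmem54 and 25519 with the empty vector, and Alb had 2993 with Cd74, 10261 with Tmem54 and 5727 with the empty vector, a difference of -0.87 for Cd74. Rbp4 differed by 0.50 and Trf by -0.32 for Cd74, so these markers did not share a direction. Hnf4a, Fgb and Ahsg were not well above background on any array. The summed scaled signals of markers of other cell types were 10.2 with Cd74, 11.4 with Tmem54 and 11.6 with the empty vector for leukocytes (3 of 5 detected). For fibroblasts (4 of 4 detected) they were 124 with Cd74, 99.8 with Tmem54 and 113 with the empty vector, and for cholangiocytes (3 of 4) 30.8 with Cd74, 36 with Tmem54 and 32.5 with the empty vector. Of 3 endothelial markers only Pecam1 was detected, with a signal of 32.22 with Cd74, 39.49 with Tmem54 and 49.71 with the empty vector. The 4 fibroblast markers differed in direction, with Col1a1 at -0.76, Pdgfrb at -0.55, Col1a2 at -0.021 and Dcn, which makes up most of their sum, at 0.22 for Cd74 against the empty vector. The part of these markers in the sterol result was not tested.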

How the data were processed

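Total RNA of Hepa1c1c7 cells was labelled with Cy3 and hybridised to Agilent arrays, 1 per vector, all on the same slide. The spot intensity was deposited by the authors as scanner output. The submitters' processing notes name Agilent Feature Extraction, version 12.0.3.1. The processed intensity was deposited background-subtracted and detrended within each array, per the file headers. Probe positions are of build mm9, per the file headers. The deposited value table holds a linear, uncentred signal, equal to the processed intensity divided by 1 constant per array (559.8 for Cd74, 580.7 for Tmem54 and 580.3 for the empty vector), with column medians of 0.0393, 0.039 and 0.0409 in that order. How the authors chose the constants is not given in the sources used here.

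Control spots and outlier spots were left out, replicate spots of a probe were averaged, and log2 of the processed signal minus the 75th percentile of each array was compared. A probe not well above background on 1 side of a comparison gave a bound. Each gene is represented by its brightest probe well above background on at least 1 array. Probe symbols were updated through a RefSeq table of GRCm38.p6, which matched 33767 probes by accession, 9866 by symbol and 310 by synonym, with 12662 unmatched. Bright genes had a signal of at least 296 and were well above background on all arrays. Python 3.11.15, numpy 2.4.6, pandas 2.3.3, matplotlib 3.10.9, R 4.3.3 and limma 3.58.1 (normexp, offset 50) were used, and the comparison code was tested on simulated data.

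The members and the further lists were chosen with earlier results of these data known. All 27 members are named. Of each further list, up to 4 genes with the largest Cd74 difference in size among those well above background on all arrays are named, with Acat1 and the transfected genes, and some genes of these lists are not reported here. Cell type markers and genes said to be named after their values were seen fall outside this rule. Nothing says that the 3 cultures were repeated, so no spread between cultures is known and the number of arrays limits the precision. Alternatives changed the background correction, the scaling, the filter on dim probes and the probe per gene.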

Additional observations from a re-analysis of the deposited data

How the results depend on the processing

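With 1 array per vector no replicate could be left out, and no difference between vectors has an error that covers culture or transfection. No paired analysis was possible because each vector has 1 array and the labels give no replicate numbers. Normexp background correction, centring on the median of detected probes, quantile normalization, the deposited value table and both stricter filters on dim probes left the Cd74 median between -0.549 and -0.498, with 9 to 12 members at least 1.5-fold lower. With normexp these were 9 of 25 members, against 221 of 15630 genes. With the deposited value table they were 12 of 25, against 683 of 15630 genes. The choice of probe mattered more. With the next-brightest probe, which exists for 19 members, the median was -0.401 for Cd74 against the empty vector, with 4 members at least 1.5-fold lower, against 240 of 6902 genes by the same choice of probe. It was -0.556 for Cd74 against Tmem54, with 9 at least 1.5-fold lower, against 288 of 6836 genes. Below the empty vector with Tmem54 were then 3 members. The mean over all detected probes gave a median of -0.576 for Cd74 against Tmem54. Normexp put Mvd (-0.568), Fdps (-0.579) and Insig1 (-0.407) short of 1.5-fold lower for Cd74 against the empty vector, and quantile normalization did so for Fdps (-0.574). The mean over all detected probes did so for Msmo1 (-0.442), Nsdhl (-0.506), Stard4 (-0.554) and Dhcr7 (-0.247), and put Mvk (-0.663) past it. Dhcr7 turned to 0.203 for Cd74 against the empty vector and to 0.263 for Cd74 against Tmem54 with its next-brightest probe, a dim one with a signal of 16.9 with Cd74, 14.9 with Tmem54 and 15.4 with the empty vector. The cause of these shifts was not tested. A sterol regulatory element with up to 1 mismatch, a search chosen after seeing the data, occurred in 11 of 23 member windows, against 28.7% of detected genes. Dim probes limit Tm7sf2, Insig1 and the next-brightest probes most.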

Other observations

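The 1 probe that lists an Acat2 transcript is named for Acat3 in the array design, so its signal cannot be given to either thiolase gene. It had 106.5 with Cd74, 151 with Tmem54 and 149.1 with the empty vector, a difference of -0.42 for Cd74 against the empty vector and 0.006 for Tmem54 against the empty vector. A dim probe for another Hsd17b7 transcript had 32.1 with Cd74, 21.8 with Tmem54 and 23.0 with the empty vector, a difference of 0.55 ± 0.29 for Cd74 against the empty vector, while the brightest Hsd17b7 probe differed by -0.415 ± 0.20.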
